A study of Homo sapiens with 24 samples.

Results

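The 4 libraries of HEK293T cells labelled MIR210HG-KO and kept at 1% oxygen for 24 h were compared with the 4 libraries labelled MIR210-KO from the same treatment. These 8 libraries are all that the hypoxia table holds for the knockouts, of 24 libraries in the series. HEK293T is a human embryonic kidney line that carries the SV40 large T antigen. The study sequenced mRNA of unedited (WT), MIR210-KO and MIR210HG-KO cells at 21% oxygen (normoxia) and at 1% oxygen (hypoxia), with 4 libraries in each of 6 groups. All groups shared the line, the high-glucose medium with serum and the 24 h of exposure, so the genotype label and the oxygen level are what the labels set apart. Whether a knockout line is 1 clone or a pool of edited cells is not stated, nor whether the 4 libraries of a group came from separate cultures. P values therefore measure the spread between these libraries, which may be technical, and the effect of a genotype cannot be told apart from other differences between the cell lines that carry it.

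MIR210 encodes miR-210, the microRNA most widely reported to rise when oxygen falls, because hypoxia-inducible factor (HIF) acts on the promoter of its host gene. MIR210HG is that host, a long non-coding RNA whose transcription also yields the microRNA precursor. A microRNA pairs through its seed, bases 2 to 8, with sites in the 3' untranslated regions of mRNAs and lowers their stability or translation. Known targets of miR-210 include ISCU, an iron-sulfur cluster scaffold, GPD1L, a glycerol-3-phosphate dehydrogenase, EFNA3, an ephrin, and the transcription factor E2F3.

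The mature sequences are shown with their seeds in capitals, because they fix which sites can be counted among the targets. They come from RefSeq (GRCh38.p14), where the hairpin spans chr11:568089-568198 on the reverse strand, and the 3p arm is the one usually called miR-210.
hsa-miR-210-3p: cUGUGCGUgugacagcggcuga
hsa-miR-210-5p: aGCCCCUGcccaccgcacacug
Sites matching the 3p seed are the letters ACGCACA, or CGCACAA where base 8 is unpaired and an A follows. Windows of 28 bases around such sites in 3' untranslated regions of GENCODE transcripts follow for 5 reported targets, with the site in capitals. They are shown because these are reported targets whose counts are followed below.
ISCU: aagagctatgagatACGCACAAtacttg
GPD1L: tcagctttgctgaaACGCACAttacctg
EFNA3: acaggacctatgcaACGCACAgacactt
E2F3: aacaaattgtctaaACGCACAgttgcag
SDHD: taaattgttattttCGCACAAtgggaat

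MIR210HG transcript was present in the MIR210-KO libraries and absent from the MIR210HG-KO libraries. The gene (ENSG00000247095, chr11:565660-568457, reverse strand) stood at 22.2, 18.9, 21.5 and 20.4 CPM (counts scaled to library size) in MIR210-KO libraries 1 to 4. All 4 MIR210HG-KO libraries had 0 counts, so the level was at least 896-fold lower, 2801 counts set against the 3 that a group at 0 allows. WT cells in hypoxia had 19.1 ± 1.72 CPM (SD, n = 4), and the difference of MIR210-KO from WT was not called (adjusted p = 0.406). Reads on the annotated precursor MIR210, which lies within the span of MIR210HG and shares 0% of its bases with annotated exons of the host, numbered 33 over the MIR210-KO libraries and 0 over MIR210HG-KO, at least 10.6-fold lower. WT had 30 such reads. Both tables count long RNA, so mature miR-210 was not measured, and its loss in the cells labelled MIR210-KO was not checked by these values. MIR210-KO below means the libraries so labelled.

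The knockouts differed widely. Of 19952 genes, 5194 (26.0%) were higher in MIR210HG-KO and 5794 (29.0%) were lower at an adjusted p under 0.05 in edgeR's quasi-likelihood test, so 55.1% were called. These shares are the background for the list counts below. Most calls were small: 3311 higher and 2435 lower genes changed by less than 1.5-fold. Large changes fell mainly on one side, with 674 genes (3.38%) at least 2-fold higher and 2019 (10.1%) at least 2-fold lower. At 4-fold or more the counts were 125 and 680. In 50.6% of tested genes the 4 libraries of one group did not overlap the 4 of the other. Against the WT libraries in hypoxia, which serve both comparisons, 55.9% of genes were called for MIR210-KO and 54.6% for MIR210HG-KO.

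The 8 libraries held 25992740 to 36126739 counts. The first principal component of the 8 libraries took 70.3% of the variance and separated the genotypes, and the second, 5.93%, set MIR210-KO 1 (38.9) apart from the rest (-15.9 to 11.3). Ribosomal protein mRNAs took 9.44% of the counts of MIR210-KO 1, 8.25% to 8.71% in MIR210-KO 2 to 4 and 6.85% to 7.47% in MIR210HG-KO. Counts from the mitochondrial genome were 2.40% to 2.96% in MIR210-KO and 1.93% to 2.25% in MIR210HG-KO. Of the marker genes of HEK293T cells, XRCC5, a widely expressed DNA repair gene, was level (-0.08 ± 0.05, adjusted p = 0.191), as was the kidney factor LHX1 (0.05 ± 0.12, adjusted p = 0.779). PAX2, VIM, NEFL and INA were detected in all 8 libraries and were lower in MIR210HG-KO (-1.14 ± 0.15, -0.97 ± 0.07, -1.65 ± 0.05 and -1.43 ± 0.07 on the log2 scale). Of these, PAX2, VIM and INA lie on chromosome 10, where 460 of 792 tested genes were lower and 58 higher (median -0.41). Fibroblast and smooth muscle markers summed to 54.0 to 57.4 CPM in MIR210-KO and 31.9 to 37.2 CPM in MIR210HG-KO over 11 genes, COL1A1 being the highest, with DCN at 0 counts in the first group and COL1A2 in the second. Blood and endothelial markers summed to 3.59 to 4.05 and 6.27 to 6.77 CPM over 12 genes, with HBB at 0 in both groups. A single member made up most of each sum (means of 3.22 and 5.9 CPM), and 7 and 6 of the 12 had 3 counts or fewer. The part of these differences in the results below was not tested.

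Several genes were all but silent in MIR210-KO and expressed in MIR210HG-KO. MAGEA12, a cancer-testis antigen of the X chromosome (chrX:152733779-152737669), had 0.0570, 0.0259, 0.133 and 0 CPM in MIR210-KO libraries 1 to 4 and 39.0, 37.4, 34.6 and 35.8 CPM in MIR210HG-KO (log2 fold change 9.36 ± 0.23, adjusted p = 3.57e-25). Its WT level was 0.330 ± 0.109 CPM, so WT was low like MIR210-KO. CSAG1, of the same gene cluster, followed the same order, with 0, 0.130, 0.0332 and 0.0315 CPM in MIR210-KO against 17.4, 15.1, 17.0 and 14.6 CPM (log2 fold change 8.17 ± 0.30, adjusted p = 6.33e-21). CSAG3, also of the cluster, rose by 7.27 ± 0.37. Reads of MAGEA and CSAG genes can be shared between near-identical copies, so levels of single members are uncertain. Among the 12 tested cancer-testis genes 5 were higher and 4 lower, so the list had no common direction. MAGEA10 (-3.43) and MAGEC2 (-3.66) fell.

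RUNX3, a transcription factor of lymphoid and neuronal lineages (chr1:24899511-24965121), was at 0.0854, 0, 0.0997 and 0.0315 CPM in MIR210-KO and 11.6, 11.7, 13.7 and 10.4 CPM in MIR210HG-KO (log2 fold change 7.73 ± 0.31, adjusted p = 8.34e-20). WT stood between them at 2.72 ± 0.833 CPM. AFF2, a member of a family of transcription elongation factors, showed 0.513, 1.01, 0.665 and 1.10 CPM against 30.8, 29.8, 32.4 and 28.4 CPM (log2 fold change 5.19 ± 0.16, adjusted p = 6.63e-23). Here WT, at 48.9 ± 10.4 CPM, was high, and MIR210-KO was the group apart. GSPT2, a translation release factor (6.21 ± 0.27), had the same order, with MIR210HG-KO at 5.21 ± 0.519 CPM and WT at 9.39 ± 0.877 CPM. For PXMP4, a peroxisomal membrane protein (3.89 ± 0.22), WT at 4.65 ± 0.787 CPM lay between MIR210-KO (0.461 ± 0.299 CPM) and MIR210HG-KO (6.87 ± 0.846 CPM). CXCL12, a chemokine that guides CXCR4-bearing cells, had 0 counts in MIR210-KO and 5.03, 3.67, 3.84 and 4.02 CPM in MIR210HG-KO, at least 189-fold higher.

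PSMD5, a chaperone for assembly of the 26S proteasome, had 1.40, 1.63, 1.33 and 1.42 CPM in MIR210-KO and 16.8, 16.2, 15.3 and 15.4 CPM in MIR210HG-KO (log2 fold change 3.45 ± 0.12, adjusted p = 2.53e-21). SNAI2, a repressor of epithelial genes also called Slug, was at 15.98, 13.5, 13.6 and 16.7 CPM against 81.4, 82.3, 85.1 and 86.5 CPM (log2 fold change 2.49 ± 0.08, adjusted p = 3.43e-22). WT, at 109 ± 7.95 CPM, was nearer to MIR210HG-KO. COL3A1, a fibrillar collagen chain, rose from 2.02, 1.504, 1.56 and 1.604 to 10.0, 10.1, 9.53 and 10.4 CPM (log2 fold change 2.58 ± 0.11, adjusted p = 6.52e-19), CDKN1C, an imprinted inhibitor of the cell cycle on 11p15, from 1.22, 1.12, 0.931 and 1.95 to 7.16, 6.78, 7.38 and 7.54 CPM (log2 fold change 2.47 ± 0.16, adjusted p = 1.36e-14), and DHRS2, a short-chain reductase, by 2.62 ± 0.12. These genes were picked among those whose groups did not overlap, as held for 50.6% of all tested genes.

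More genes were lost in MIR210HG-KO. SPOCK3, a secreted proteoglycan (chr4:166733384-167234796), had 23.7, 24.2, 24.6 and 22.1 CPM in MIR210-KO and 0 counts in MIR210HG-KO, at least 1030-fold lower. WT had 0.913 ± 0.160 CPM, so the gene was also much higher in MIR210-KO than in WT. SORBS2, an adaptor of the actin cytoskeleton (chr4:185585444-185956652), and RBP7, a retinoid-binding protein, likewise had 0 counts in MIR210HG-KO and were at least 429-fold and 318-fold lower. GALC, the lysosomal enzyme that degrades galactosylceramide (chr14:87837820-87993665), had 6.07, 5.06, 5.75 and 5.22 CPM in MIR210-KO, 0 counts in MIR210HG-KO (at least 239-fold lower) and 3.29 ± 0.253 CPM in WT. For this gene MIR210HG-KO was the group apart. DOK6, an adaptor of receptor tyrosine kinases, had 1262 counts over MIR210-KO and 2 over MIR210HG-KO, a ratio of 606 with a 95% counting interval of 167 to 5010.

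Others at the bottom of the ranking were MFAP2, a microfibril protein (-8.86 ± 0.28), MDGA2, a synaptic adhesion protein (-8.71 ± 0.34), ATP2B3, a calcium pump (-6.73 ± 0.33), RPRM, a p53-induced arrest gene (-6.53 ± 0.18), PTPRZ1, a receptor phosphatase (-6.49 ± 0.26), and TMEM178B (-6.88 ± 0.16). Of these, TMEM178B had 41.6 ± 6.87 CPM in WT and the others between 0.117 and 4.80 CPM.

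**Figure D1:**
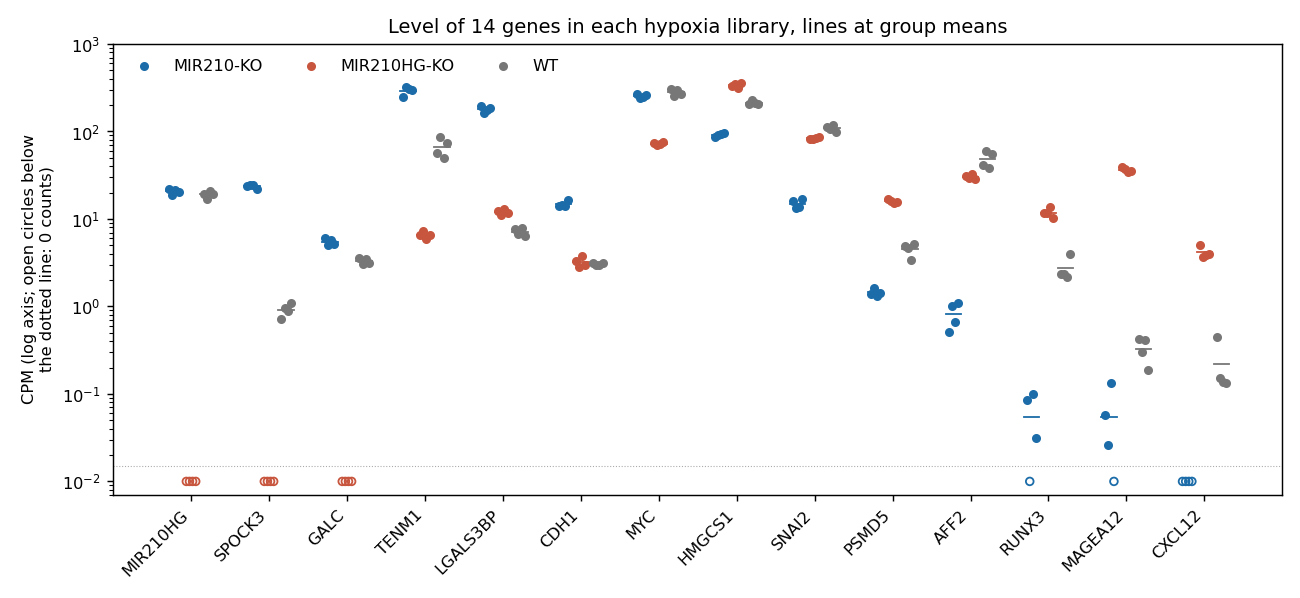
Each point is the CPM of 1 gene in 1 hypoxia library on a log axis, in blue for MIR210-KO, red for MIR210HG-KO and grey for WT, with lines at group means and open circles for 0 counts. MIR210HG, SPOCK3 and GALC had 0 counts in MIR210HG-KO and CXCL12 had 0 counts in MIR210-KO, while WT lay above both knockouts for SNAI2 and AFF2, below both for LGALS3BP and with one knockout or between them for the others.

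Among abundant genes (a mean of at least 100 CPM over the 8 libraries) the largest fall was that of TENM1, a teneurin involved in neuronal wiring, on the X chromosome. It had 245, 319.9, 306 and 294 CPM in MIR210-KO and 6.49, 7.20, 5.88 and 6.51 CPM in MIR210HG-KO (log2 fold change -5.48 ± 0.13, adjusted p = 2.69e-25). KIF1A, a kinesin of axons, was at 208, 190.5, 201 and 215 against 35.8, 32.3, 36.8 and 34.5 CPM (log2 fold change -2.54 ± 0.08, adjusted p = 5.33e-23), and NEFM, a neurofilament chain, at 242, 258, 213 and 236 against 53.03, 44.1, 50.6 and 56.9 CPM (log2 fold change -2.21 ± 0.09, adjusted p = 1.26e-19). An antisense gene overlaps 38.9% of the exon bases of NEFM and had 183 counts over the 8 libraries where NEFM had 39029. GLA, the lysosomal alpha-galactosidase, fell from 657, 611, 634 and 651 to 144, 145, 136 and 144 CPM (log2 fold change -2.17 ± 0.07, adjusted p = 1.92e-21). NPTX1, a neuronal pentraxin (-2.31 ± 0.07), and CXorf40A (-2.15 ± 0.06) completed the 6 lowest. The 6 highest were HMGCS1 and LSS of cholesterol synthesis, described below, MID1, a ubiquitin ligase (1.68 ± 0.05), MDK, the growth factor midkine (1.503 ± 0.08), AHNAK, a giant scaffold protein (1.5 ± 0.11), and the splicing factor SRSF6 (1.39 ± 0.05).

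Of 1219 tested lincRNA genes, which encode long intergenic non-coding RNAs, 157 (12.9%) were higher, 325 (26.7%) lower and 737 not called (median -0.17), beside 26.0% higher and 29.0% lower over all genes tested. LINC02381 had 36.5, 29.7, 30.1 and 31.4 CPM in MIR210-KO and 0.801, 0.874, 0.779 and 0.569 CPM in MIR210HG-KO (log2 fold change -5.39 ± 0.12, adjusted p = 2.07e-25). LINC00648 (-5.81 ± 0.30) and AL365181.3 (-5.64 ± 0.33) fell as far. NRAV, an RNA reported to restrain interferon-stimulated genes, moved the other way, from 5.58, 5.63, 4.85 and 6.23 to 22.2, 22.5, 22.6 and 22.4 CPM (log2 fold change 2.01 ± 0.10, adjusted p = 1.13e-17). FZD10-DT (1.82 ± 0.12), LINC01291 (1.54 ± 0.16) and AC112220.2 (1.54 ± 0.13) were the other long non-coding RNAs with the largest rises.

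Cholesterol synthesis had the highest share of rising members of the 38 gene lists. Of 24 tested genes of the pathway and its control 22 were higher, 2 not called and 0 lower, and their median log2 fold change was 0.77, where that of all genes tested was -0.01. HMGCS1, which makes the HMG-CoA that enters the pathway, had 86.8, 91.4, 92.5 and 95.0 CPM in MIR210-KO and 332, 353, 311 and 359 CPM in MIR210HG-KO (log2 fold change 1.89 ± 0.06, adjusted p = 6.56e-23). The groups did not overlap, and WT lay between them at 214 ± 10.6 CPM. LSS, which closes the sterol ring, had 54.9, 46.0, 50.5 and 51.2 against 162, 174, 178 and 172 CPM (log2 fold change 1.76 ± 0.07, adjusted p = 4.27e-20). SQLE, the squalene epoxidase (1.05 ± 0.05), ACAT2 (1.33 ± 0.07) and the feedback regulator INSIG1 (0.72 ± 0.05) also rose. An antisense gene overlaps 52.3% of the exon bases of ACAT2 and had 16 counts over the 8 libraries. Fatty acid synthesis genes had no common direction (7 higher, 6 lower and 4 not called of 17).

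Cell division genes were also higher, by less. Of 50 genes of G2 and mitosis 35 (70.0%) rose, 3 (6.0%) fell and 12 were not called (median 0.31). Of 40 S phase genes 21 (52.5%) rose and 5 (12.5%) fell (median 0.20), beside 26.0% and 29.0% of all genes tested. INCENP, a scaffold of the chromosomal passenger complex, went from 90.1, 83.6, 87.9 and 88.3 CPM in MIR210-KO to 175, 166, 196 and 176 CPM in MIR210HG-KO (log2 fold change 1.03 ± 0.07, adjusted p = 1.28e-13). It lies on chromosome 11, whose genes as a whole were higher as given with the chromosomes. CCNB1, the mitotic cyclin (0.53 ± 0.05), DLGAP5 (0.92 ± 0.06), E2F1, which drives entry into S phase (0.71 ± 0.08), and CHAF1B, a histone chaperone at forks (0.77 ± 0.05), rose as well. DLGAP5 lies on chromosome 14 (median 0.37), E2F1 on chromosome 20 (0.47) and CHAF1B in chr21:30000001-40000000 (0.46). CCNB1 lies on chromosome 5 (-0.05). AURKB (-0.22), BUB3 (-0.39) and BIRC5 (-0.16) were the 3 that fell. Relative to the median of each gene's own chromosome, the medians were 0.40 for G2 and mitosis and 0.09 for S phase.

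**Figure D2:**
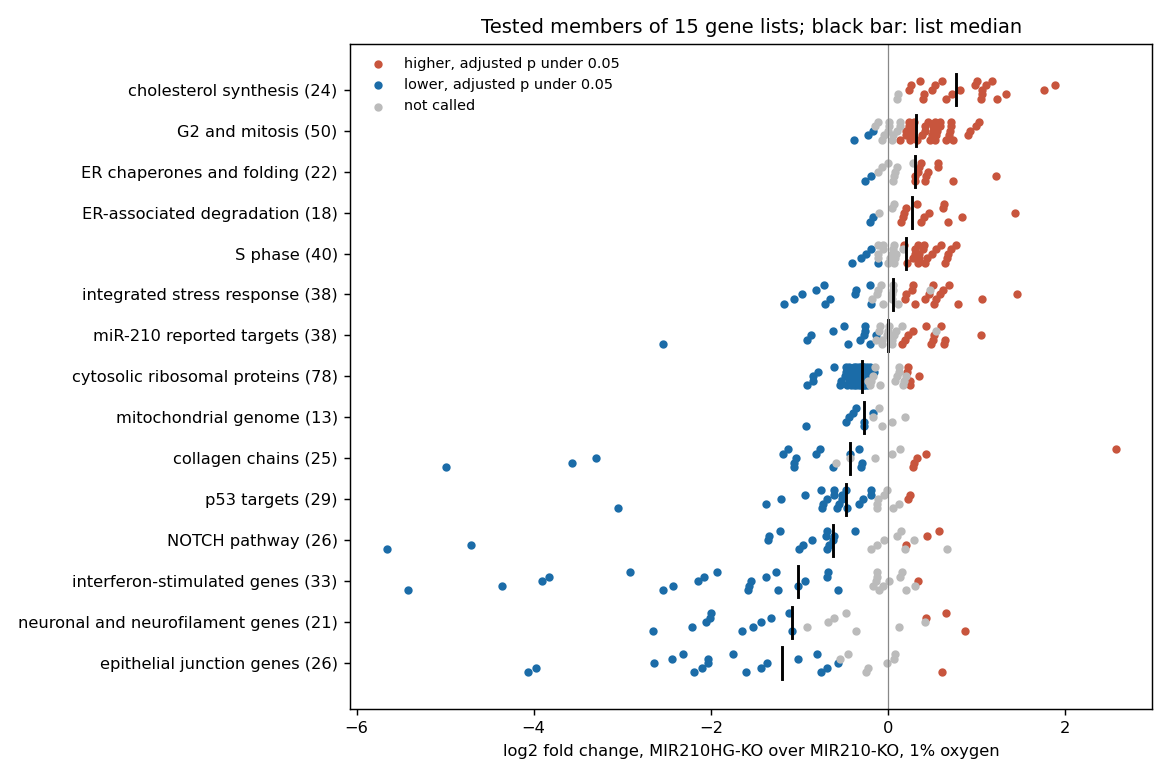
Each point is the log2 fold change of 1 tested member, MIR210HG-KO over MIR210-KO in hypoxia, red where higher, blue where lower and grey where not called, with the number tested in brackets and a black bar at the list median. Cholesterol synthesis (median 0.77) stands highest and epithelial junction genes (median -1.19) lowest.

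Interferon-stimulated genes, which encode antiviral effectors, were lower in MIR210HG-KO. Of 33 tested members 21 fell, 1 rose (SAMHD1, 0.34) and 11 were not called (median -1.02). LGALS3BP, a secreted glycoprotein, had 196, 164, 175 and 184 CPM in MIR210-KO and 12.3, 11.0, 12.9 and 11.6 CPM in MIR210HG-KO (log2 fold change -3.91 ± 0.09, adjusted p = 3.57e-25). BST2, the virus tether tetherin, had 11.3, 11.5, 11.7 and 10.9 against 0.912, 0.559, 0.940 and 0.712 CPM (log2 fold change -3.83 ± 0.19, adjusted p = 3.23e-17), and the ubiquitin ligase DTX3L had 25.5, 27.5, 26.6 and 28.97 against 3.98, 3.67, 3.49 and 3.20 CPM (log2 fold change -2.91 ± 0.09, adjusted p = 3.78e-22). In each of these WT (7.17 ± 0.783 CPM, 0.556 ± 0.222 CPM and 5.95 ± 0.256 CPM) was nearer to MIR210HG-KO, so the MIR210-KO libraries were the high ones. The RNA sensor IFIH1 (-5.42 ± 0.43), OAS3, which makes the activator of RNase L (-4.36 ± 0.34), and PARP9, the partner of DTX3L (-2.54 ± 0.14), followed. STAT2 (0.13) and IRF9 (0.30), which carry the interferon signal to the nucleus, and ISG15 (-0.17) were not called. In the MHC class I list 6 of 16 (37.5%) were lower and 3 (18.8%) higher, beside 29.0% and 26.0% of all genes tested. ERAP2 (-4.16 ± 0.21) and the transactivator NLRC5 (-3.43 ± 0.23) were lowest and HLA-E was up (0.64 ± 0.05). HLA-E lies in chr6:30000001-40000000, where the median over 204 tested genes was 0.46.

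Most promoters of the interferon-stimulated list hold a sequence feature that few promoters of all tested genes hold. Promoters of the MHC class I list hold it too, in 9 of 13 (69.2%). It is the letters GAAA, any 2 bases and GAAA again, a core of the element bound by interferon-activated factors. On either strand these letters were found in 18 of 27 promoters of tested interferon-stimulated members that RefSeq gave (66.7%). Each promoter was taken from 250 bases before to 50 after the start. The share over 12905 promoters of all tested genes was 2.72%. Of the 18 with a match 14 were lower, 4 not called and 0 higher (median -1.57), and of the 9 without one 5 were lower and 1 higher (median -0.56). Matches are shown in capitals with the bases next to them, as examples that fell (RefSeq, GRCh38.p14, each on the strand of its gene).
LGALS3BP (in chr17:78979874-78980173, reverse strand): ttctgGAAATCGAAAgtaga
BST2 (in chr19:17405581-17405880, reverse strand): tctggGAAACTGAAActgaa
DTX3L (in chr3:122564088-122564387, forward strand): gaagcGAAACTGAAActttg
IFIT1 (in chr10:89392373-89392672, forward strand): tttagTTTCACTTTCccctt
SAMD9 (in chr7:93117930-93118229, reverse strand): gaaatGAAACTGAAAccaaa
In IFIT1 the match reads on the opposite strand. Promoters of EIF2AK2 and ISG15, which were not called, hold a match as well.
EIF2AK2 (in chr2:37156931-37157230, reverse strand): aagggGAAAACGAAActgag
ISG15 (in chr1:1013247-1013546, forward strand): ctcggGAAAGGGAAAccgaa
A match is a run of letters and not a measured site.

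Epithelial junction genes had the lowest median of the 38 lists (-1.19), with 18 of 26 lower, 1 higher and 7 not called. Over all genes tested 29.0% were lower and 26.0% higher. CDH1, the E-cadherin of epithelial contacts, had 13.98, 14.3, 14.2 and 16.5 CPM in MIR210-KO and 3.34, 2.80, 3.76 and 2.95 CPM in MIR210HG-KO (log2 fold change -2.18 ± 0.10, adjusted p = 5.84e-18). MARVELD2, the tricellulin of tight junctions, had 5.24, 5.65, 5.45 and 5.06 against 0.276, 0.280, 0.483 and 0.285 CPM (log2 fold change -3.97 ± 0.19, adjusted p = 1.13e-17). WT, at 3.05 ± 0.0888 CPM and 0.501 ± 0.128 CPM, again lay near MIR210HG-KO. CLDN1, a claudin (-4.06 ± 0.33), CDH3 (-2.65 ± 0.15) and the keratin KRT8 (-2.03) fell, DSP, a desmosome protein, rose (0.61), and TJP1 was not called (0.07). Mesenchymal and matrix genes were mixed (6 higher and 11 lower of 22), as SNAI2 above and VIM show.

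Basement membrane and other collagen chains were mostly lower (15 lower and 5 higher of 25, median -0.43). COL4A3, a chain of the glomerular basement membrane, had 16.1, 20.3, 18.1 and 18.5 CPM in MIR210-KO and 0.636, 0.489, 0.456 and 0.712 CPM in MIR210HG-KO (log2 fold change -4.99 ± 0.17, adjusted p = 7.50e-22). Its partner COL4A4, transcribed from the same promoter region, was also lower (-3.29 ± 0.14), as was COL12A1 (-3.56 ± 0.16). COL3A1 was the chain that rose most. Kidney development genes were lower in 12 of 24 and higher in 5, among them OSR1, an early kidney factor, with 136 counts over MIR210-KO and 0 over MIR210HG-KO (at least 43.5-fold lower), PODXL of podocytes (-2.05 ± 0.06) and GATA3 (-1.52 ± 0.10).

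Of 21 tested neuronal genes 11 (52.4%) were lower and 3 (14.3%) higher (median -1.09), beside 29.0% and 26.0% of all genes tested. Besides NEFM and KIF1A, the lower ones were led by GAP43, a growth cone protein (-2.66 ± 0.28), MAPT, which encodes tau (-2.06 ± 0.08), and ENO2, described with the HIF targets. Members of NOTCH signalling fell in 15 of 26 (57.7%) and rose in 3 (11.5%, median -0.62). HES5, a target of the pathway, had 1.71, 1.45, 1.595 and 1.32 CPM in MIR210-KO and 0, 0.0350, 0.0805 and 0.107 CPM in MIR210HG-KO (log2 fold change -4.71 ± 0.51, adjusted p = 1.78e-09). Ligands DLL4 (-1.36 ± 0.23), DLL1 (-1.22) and JAG1 (-0.69) fell with HES1 (-0.37 ± 0.07), and receptor NOTCH1 was not called (0.15 ± 0.10, adjusted p = 0.226). In the TGF-beta, activin and BMP list 16 of 42 rose and 13 fell. Its ligands BMP5 (3.03 ± 0.51) and INHBA (2.57 ± 0.25) and the target ID1 (0.95) were higher, and the antagonists FST (-2.03) and CHRD (-1.70) were lower.

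Targets of p53, whose protein is bound by large T antigen in this line, were lower in 20 of 29, higher in 2 and not called in 7 (median -0.47). The shares, 69.0% lower and 6.9% higher, stand beside 29.0% and 26.0% of all genes tested. EDA2R, a TNF receptor family member on the X chromosome, had 55.5, 63.8, 62.1 and 55.0 CPM in MIR210-KO and 7.68, 7.76, 6.77 and 6.41 CPM in MIR210HG-KO (log2 fold change -3.04 ± 0.10, adjusted p = 1.55e-22). FAS, the death receptor (-1.38 ± 0.08), PLK2 (-1.21 ± 0.10) and BAX (-0.73) fell, while CDKN1A, the best known target, was not called (-0.12 ± 0.06, adjusted p = 0.109). CDKN1A lies in chr6:30000001-40000000, where 121 of 204 tested genes were higher and 22 lower (median 0.46). FAS lies on chromosome 10, where the median was -0.41. MYC, a driver of growth and of ribosome production, had 271, 242, 249 and 262 CPM in MIR210-KO and 73.3, 69.2, 71.3 and 75.8 CPM in MIR210HG-KO (log2 fold change -1.82 ± 0.06, adjusted p = 3.55e-21). With a WT level of 280.5 ± 23.9 CPM, it was MIR210HG-KO that stood apart. Immediate-early genes, the list that holds MYC, fell in 16 of 27 and rose in 5, with DUSP2 (-3.83 ± 0.37) and EGR2 (-1.77 ± 0.26) among the lowest.

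Ribosomal protein mRNAs fell together by a small step. Of 78, 60 were lower, 5 higher and 13 not called (median -0.29). RPS6, a subunit phosphorylated downstream of mTOR, had 2143, 1966, 1789 and 1892 CPM in MIR210-KO and 1065, 1149, 1046 and 1058 CPM in MIR210HG-KO (log2 fold change -0.85 ± 0.08, adjusted p = 8.05e-11). RPS15 (-0.92 ± 0.09) and RPS24 (-0.84 ± 0.08) fell as far. RPS6 lies in chr9:10000001-20000000, where the median over 29 tested genes was -0.73, and RPS24 on chromosome 10 (median -0.41). Without MIR210-KO 1, the library richest in these mRNAs, 49 were lower and the median was -0.23, and with a covariate for the balance of long and short genes it was -0.22. Of 13 mRNAs of the mitochondrial genome 8 were lower and 5 not called (median -0.27). MT-ND1, a complex I subunit, had 1090.3, 1244, 932 and 1014 CPM against 609.9, 493, 593 and 567 CPM (log2 fold change -0.92 ± 0.08, adjusted p = 4.57e-11). Nuclear genes of complex I were split (8 higher and 11 lower of 37), and of those of complexes II to V 6 were higher, 16 (39.0%) lower and 19 not called of 41, where 29.0% of all genes were lower. The count lower in complex I fell to 7 without MIR210HG-KO 4.

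Reported miR-210 targets showed no common direction between the knockouts. Of 38 genes 12 were higher, 12 lower and 14 not called, and the median was 0.0037 beside -0.01 for all genes. ISCU, with the 8-base site shown above, had 53.7, 51.6, 51.8 and 49.3 CPM in MIR210-KO and 46.7, 55.6, 48.8 and 45.8 CPM in MIR210HG-KO, and the groups overlapped (log2 fold change -0.07 ± 0.06, adjusted p = 0.344). GPD1L had 68.4, 71.0, 72.6 and 79.1 against 48.0, 46.4, 46.7 and 47.8 CPM and was lower (log2 fold change -0.62 ± 0.05, adjusted p = 5.53e-12). E2F3 had 103, 108, 118 and 112 against 167, 171, 168 and 174 CPM and was higher (log2 fold change 0.63 ± 0.05, adjusted p = 5.53e-12). Here the 3 targets took 3 different courses, and EFNA3, which shares 44.7% of its exon bases with another gene, was not called (0.16 ± 0.11, adjusted p = 0.207) while SDHD, a subunit of complex II, rose (0.53 ± 0.09). SDHD lies on chromosome 11, where the median over all tested genes was 0.48. BDNF (-2.54 ± 0.35) and HOXA9 (-0.91 ± 0.06, 27.0% of its exon bases shared with an antisense gene) were the lowest of the list and LOXL2, a lysyl oxidase, the highest (1.05 ± 0.09). Among 14214 tested genes with an annotated 3' untranslated region, 513 held a site for the 3p seed. Of these 30.2% were higher and 36.1% lower (median -0.05), where the shares over all 14214 were 30.7% and 32.2% (median 0.0024). For the 72 genes with the 8-base site ACGCACAA the shares were 31.9% and 27.8% (median 0.05).

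Neighbours of MIR210HG on 11p15.5 were mostly higher in MIR210HG-KO (17 higher, 3 lower and 10 not called of 30, median 0.35). PHRF1, the gene next to the host (0.77 ± 0.07), RASSF7 (1.13 ± 0.12) and HRAS, the GTPase (0.61 ± 0.09), rose, DEAF1 was not called (-0.07 ± 0.08, adjusted p = 0.430), and the lower ones were IFITM1, IFITM2 and IFITM3, which are near-identical copies and also interferon-stimulated. All of chromosome 11 was shifted the same way: 631 of its 1043 tested genes were higher and 104 lower, with a median of 0.48. Relative to that median, the neighbours stood at -0.13.

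Whole chromosomes and segments differed between the knockouts. Chromosome 20 (312 higher and 55 lower of 499, median 0.47) and chromosome 14 (365 and 81 of 653, median 0.37) were shifted up like chromosome 11. Chromosome 10 (58 higher and 460 lower of 792, median -0.41) and chromosome 17 (114 and 580 of 1226, median -0.27) were shifted down. Chromosome 9 (133 and 342 of 808, median -0.21) was shifted down over part of its length only. Its windows from chr9:1 to chr9:40000000 had medians of -0.78 to -0.57, and those from chr9:70000001 on had medians of -0.06 to 0.07. Of 283 windows of 10 Mb with at least 20 tested genes, the lowest were 2 adjacent ones at the end of chromosome 4, chr4:170000001-180000000 (0 higher and 19 lower of 23, median -1.03) and chr4:180000001-190000000 (0 and 35 of 41, median -1.02). SORBS2 lies in the second. Next came chr9:60000001-70000000 (median -0.80) and chr9:1-10000000 (median -0.78). Highest were chr18:30000001-40000000 (34 higher and 6 lower of 49, median 0.62), chr11:110000001-120000000 (0.60), chr18:20000001-30000000 (0.57) and chr20:60000001-70000000 (0.57).

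The shifts were alike at both oxygen levels. In normoxia the medians of MIR210HG-KO against MIR210-KO were 0.50 for chromosome 11, 0.48 for chromosome 20, 0.38 for chromosome 14 and -0.42 for chromosome 10, from libraries that share none with the hypoxia comparison. In hypoxia, the median of MIR210-KO against WT was -0.48 on chromosome 11 and -0.47 on chromosome 20, and that of MIR210HG-KO against WT was -0.06 and -0.04. On chromosome 14 the values were 0.05 for MIR210-KO and 0.36 for MIR210HG-KO against the same WT libraries. Copy number was not measured in these files, and whether it differs between the lines was not tested. How far single genes named in this report follow the shift of their chromosome was not tested either.

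**Figure D3:**
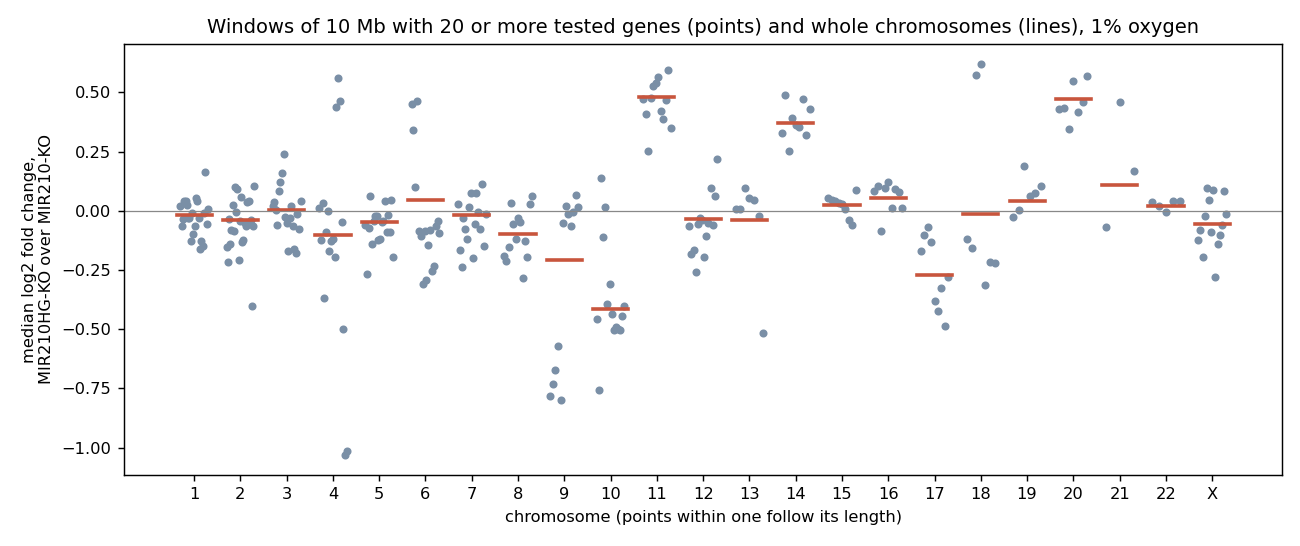
Points are medians of the log2 fold change, MIR210HG-KO over MIR210-KO in hypoxia, over tested genes in windows of 10 Mb, and red lines are medians of whole chromosomes. Chromosomes 11, 14 and 20 lie above 0 along their length, chromosome 10 lies mostly below, and single segments of chromosomes 4, 6, 9, 13 and 18 stand apart from the rest of theirs.

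Most differences between the knockouts were found at both oxygen levels. Of the genes higher in hypoxia 3688 were also higher in normoxia, which is 71.0% of the hypoxia list and 79.1% of the normoxia list of 4665. Of the lower genes 4306 were shared, 74.3% and 83.6% of the 2 lists. Only 35 and 19 genes called higher or lower in hypoxia were called the other way in normoxia. Where the difference was itself tested, 707 genes (3.54%) had a knockout difference that differed between oxygen levels, 405 (2.03%) higher and 302 (1.51%) lower in hypoxia than in normoxia. The normoxia and hypoxia libraries come in separate tables, so oxygen and table cannot be told apart. The counts shifted with the libraries used, from 286 to 654 higher and 166 to 452 lower when 1 library was left out, the most without normoxia MIR210HG-KO 3. Without 4 libraries that stood apart from their groups (hypoxia WT 1 and 3, hypoxia MIR210-KO 1 and normoxia MIR210HG-KO 3) 1137 were higher and 1007 lower, and with a covariate for long and short genes 845 and 658. The named changes that follow are those of genes and lists with a shared role.

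Genes of the integrated stress response, which ATF4 drives when eIF2alpha is phosphorylated, changed together in that test. Of 38 members 26 had a higher knockout difference in hypoxia and 0 a lower one, beside 2.03% and 1.51% of all genes, and the median of the change was 0.55. In normoxia 33 of them were lower in MIR210HG-KO and 3 higher (median -0.44), whereas in hypoxia 11 were lower and 16 higher (median 0.06). Against the WT libraries in hypoxia most members were lower in each knockout. They were 34 in MIR210-KO (median -1.07) and 36 in MIR210HG-KO (median -1.08), with 1 higher in each. CHAC1, which degrades glutathione, had 8.40, 7.47, 7.64 and 8.30 CPM in MIR210-KO and 10.1, 12.9, 12.8 and 13.6 CPM in MIR210HG-KO in hypoxia (log2 fold change 0.63 ± 0.11, adjusted p = 8.52e-06). In normoxia its difference was -0.94 ± 0.13, so the sign turned (1.56 ± 0.17, adjusted p = 4.22e-07 for the change between oxygen levels). ATF3, a stress-induced repressor, had 99.9, 85.9, 78.3 and 89.1 against 139, 159.8, 142 and 170.3 CPM in hypoxia, 0.79 ± 0.07 against -0.26 ± 0.07 in normoxia (1.05 ± 0.10, adjusted p = 4.65e-08). SLC7A11, the cystine carrier, went from -0.27 ± 0.09 in normoxia to 1.06 ± 0.09 in hypoxia (1.33 ± 0.12, adjusted p = 4.05e-08), and TRIB3, a pseudokinase that curbs ATF4, from -0.27 ± 0.07 to 0.55 ± 0.07 (0.82 ± 0.11, adjusted p = 5.23e-06). Both were called lower in MIR210HG-KO in normoxia and higher in hypoxia.

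Other members were lower in MIR210HG-KO at both levels, by less in hypoxia. NUPR1, a small stress protein, had 7.18, 5.39, 4.82 and 5.95 CPM in MIR210-KO and 2.46, 2.45, 2.79 and 2.598 CPM in MIR210HG-KO in hypoxia, a difference of -1.18 ± 0.15 against -3.20 ± 0.20 in normoxia (2.02 ± 0.26, adjusted p = 4.83e-06). ADM2, a peptide hormone gene outside the list, did the same, with -1.01 ± 0.12 and -2.57 ± 0.14 (1.56 ± 0.19, adjusted p = 2.46e-06). ATF4 itself had 675, 609.8, 591 and 619 CPM against 653, 664, 675 and 709 CPM in hypoxia, where it was not called (0.11 ± 0.06), and was slightly lower in normoxia (-0.25 ± 0.06, with a change of 0.37 ± 0.09, adjusted p = 0.0137). STC2, a secreted glycoprotein under both ATF4 and HIF, had the smallest p of the list (0.21 ± 0.05 and -0.85 ± 0.05, 1.05 ± 0.07, adjusted p = 3.73e-12). DDIT3, which encodes CHOP, was higher in hypoxia (0.51 ± 0.11), but 39.6% of its exon bases overlap MARS on the opposite strand, so its count is uncertain. ASNS, asparagine synthetase, 44.6% of whose exon bases lie in another gene too, was not called in hypoxia (0.06 ± 0.11), and its sign turned with a covariate for long and short genes (-0.02). Aminoacyl-tRNA synthetases, many of them ATF4 targets, had 8 of 20 higher and 0 lower in the same test, among them WARS (0.44 ± 0.07) and CARS (0.47 ± 0.09). Against WT in hypoxia 18 of the 20 were lower in MIR210-KO and 16 in MIR210HG-KO, with 0 and 1 higher. The letters TTGCATCA, an amino acid response core, were in 0.504% of all promoters, in 6 of 16 promoters of the synthetases and in 2 of 29 of the integrated stress response list, shown here for CHAC1 of the latter on its own strand.
CHAC1 (in chr15:40953221-40953520, forward strand): tgccgTTGCATCActcct

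In hypoxia more chaperones of the endoplasmic reticulum (ER) were higher than lower in MIR210HG-KO against MIR210-KO, while most were lower than in WT in each knockout. Of 22 tested 12 were higher, 2 lower and 8 not called (median 0.30), and of 18 genes of ER-associated degradation 13 were higher and 2 lower (median 0.27). The shares over all genes tested were 26.0% higher and 29.0% lower. Against the same WT libraries 16 of the 22 chaperones were lower in MIR210HG-KO (median -0.44) and 20 in MIR210-KO (median -0.54), and of the 18 degradation genes 10 (median -0.20) and 12 (median -0.40) were lower. HSPA5, the master chaperone BiP, had 332, 321, 319.7 and 317 CPM in MIR210-KO and 553, 533, 509 and 555 CPM in MIR210HG-KO (log2 fold change 0.74 ± 0.06, adjusted p = 9.69e-13). In normoxia it did not differ by the test (0.01 ± 0.06), and the change was 0.73 ± 0.08, adjusted p = 4.22e-07. WT in hypoxia was far higher, at 2225 ± 233 CPM. HERPUD1, of the degradation machinery, had 50.4, 42.1, 43.4 and 49.95 against 74.4, 72.0, 65.5 and 75.8 CPM (log2 fold change 0.63 ± 0.06, adjusted p = 7.05e-10), with -0.10 ± 0.07 in normoxia (0.73 ± 0.09, adjusted p = 4.42e-06). HYOU1, the nucleotide exchange factor of HSPA5, had 77.3, 70.7, 72.5 and 73.7 against 169, 167, 174 and 174 CPM (log2 fold change 1.22 ± 0.05, adjusted p = 6.06e-19) and lies on chromosome 11. Also higher were DNAJB9 (0.45 ± 0.08), PDIA4 (0.34 ± 0.05), MANF (0.56 ± 0.08) and SYVN1 (0.84 ± 0.06), P4HB was lower (-0.26), and PDIA6 was not called (0.08 ± 0.05, 25.2% of exon bases shared). In the test of oxygen levels 7 chaperones and 4 degradation genes were higher and 0 lower.

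The letters CCAAT, any 9 bases and CCACG, the ER stress element, were found on either strand in 6 of 21 promoters of the chaperone list and in 16 (0.124%) of all 12905. Of these 6, 4 were higher and 2 not called, and of the 15 without it 8 were higher and 2 lower, with medians of 0.31 and 0.34, so members with and without the letters differed little. The whole promoter of HSPA5 (chr9:125241294-125241593, reverse strand) is printed with the match in capitals, since this gene had the smallest adjusted p of its list in the test of oxygen levels.
HSPA5: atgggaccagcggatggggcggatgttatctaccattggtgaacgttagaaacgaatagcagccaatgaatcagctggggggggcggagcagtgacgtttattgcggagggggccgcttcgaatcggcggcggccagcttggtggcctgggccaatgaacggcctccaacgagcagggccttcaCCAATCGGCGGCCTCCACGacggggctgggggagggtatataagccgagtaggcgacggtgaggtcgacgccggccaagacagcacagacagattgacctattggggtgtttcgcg
Short windows show the element in 4 more chaperone promoters and in that of XBP1, a gene of the degradation list, reading on the opposite strand in CALR and CRELD2.
XBP1 (in chr22:28800520-28800819, reverse strand): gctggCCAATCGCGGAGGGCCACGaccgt
HSP90B1 (in chr12:103930160-103930459, forward strand): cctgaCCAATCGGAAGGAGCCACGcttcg
CALR (in chr19:12938359-12938658, forward strand): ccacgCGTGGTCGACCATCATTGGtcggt
CRELD2 (in chr22:49918384-49918683, forward strand): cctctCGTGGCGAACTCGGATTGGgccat
CANX (in chr5:179698679-179698978, forward strand): cccggCCAATCTTCACACTCCACGaagaa
Of these 5, XBP1 (0.47), HSP90B1 (0.31 ± 0.06), CALR (0.30 ± 0.06) and CRELD2 (0.35 ± 0.09) were higher and CANX (0.06) was not called. ERO1B, the remaining chaperone gene with the element, whose window is not printed, was not called either (-0.06).

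**Figure D4:**
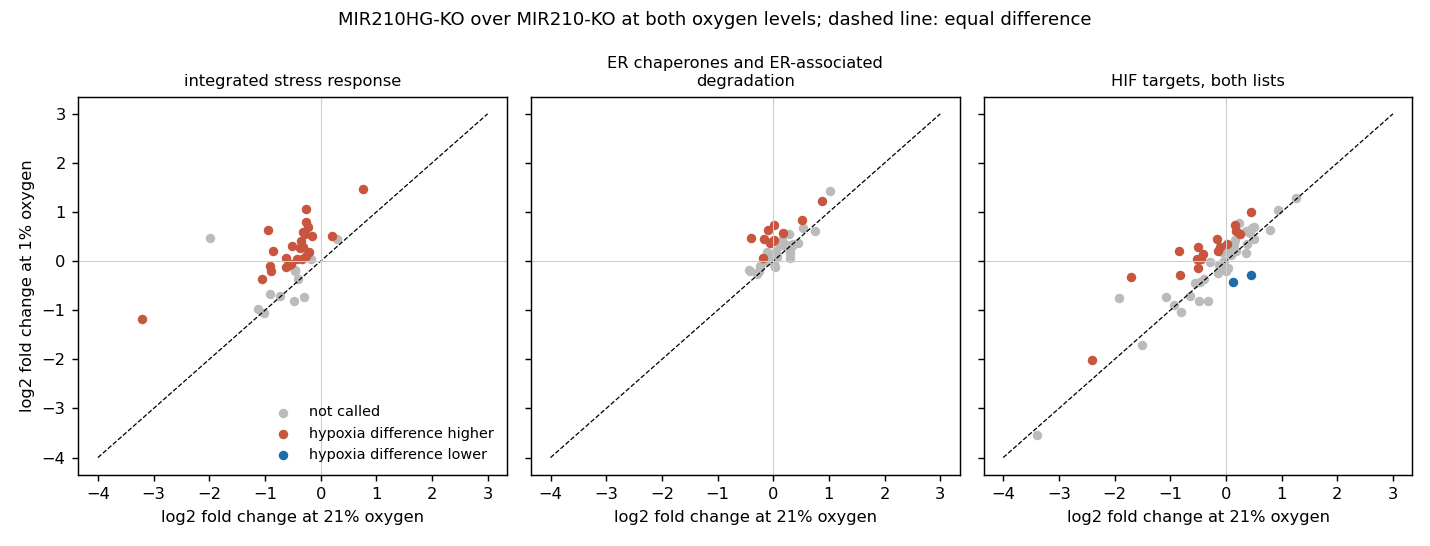
Each point is a tested gene, placed by its log2 fold change of MIR210HG-KO over MIR210-KO at 21% oxygen (horizontal) and 1% oxygen (vertical), and coloured where the difference between the oxygen levels passed the test. Of 38 genes of the integrated stress response 35 lie above the dashed line of equal difference, as do 18 of 22 ER chaperones, 14 of 18 genes of ER-associated degradation, 22 of 25 HIF targets of glucose and lactate use and 21 of 35 secreted and other HIF targets, beside 49.2% of all genes tested.

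HIF and its targets differed gene by gene. HIF1A, the oxygen-labile subunit, had 90.2, 100, 94.0 and 92.1 CPM in MIR210-KO and 157, 150.4, 143 and 141 CPM in MIR210HG-KO (log2 fold change 0.65 ± 0.06, adjusted p = 4.96e-11). It lies on chromosome 14, and the difference was like that in normoxia (0.50 ± 0.06). EPAS1, which encodes HIF-2alpha, overlapped between the groups (-0.10 ± 0.06, adjusted p = 0.136). ARNT2, a partner subunit, was lower (-1.003 ± 0.07). Of 25 targets in glucose and lactate use 11 (44.0%) were higher and 6 (24.0%) lower. Of 35 secreted and other targets 13 were higher and 13 lower (37.1% each), beside 26.0% and 29.0% of all genes tested. LDHA, which makes lactate, had 1375, 1292, 1332 and 1353 CPM against 2157, 2186, 2132 and 2208 CPM (log2 fold change 0.70 ± 0.05, adjusted p = 3.41e-13), and PFKFB4, a switch of glycolytic flux, 53.9, 45.6, 53.1 and 50.6 against 98.1, 104, 104 and 99.1 CPM (log2 fold change 0.99 ± 0.07, adjusted p = 3.49e-13). ENO2, the neuronal enolase, went the other way, with 108, 107, 108 and 105 against 26.3, 27.1, 25.7 and 26.8 CPM (log2 fold change -2.01 ± 0.06, adjusted p = 1.43e-23). SLC2A1, the main glucose carrier, rose (0.44 ± 0.07), while its relative SLC2A3 fell (-0.74 ± 0.10). For WT the level of LDHA was 2300.4 ± 185 CPM and that of PFKFB4 73.6 ± 2.91 CPM. LDHA lies on chromosome 11, where the median over all tested genes was 0.48, and PFKFB4 on chromosome 3 (0.0024).

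VEGFA, the vessel growth factor, had 147, 145, 143 and 137 CPM in MIR210-KO and 166, 194, 186 and 178 CPM in MIR210HG-KO (log2 fold change 0.34 ± 0.05, adjusted p = 1.37e-06), both below WT at 348 ± 12.7 CPM. In normoxia the knockouts did not differ by the test (0.02 ± 0.05, with a change of 0.32 ± 0.08, adjusted p = 0.0131). NDRG1, a hypoxia-induced stress gene, had 230.0, 201, 209.6 and 217 against 167, 177, 183 and 182 CPM (log2 fold change -0.27 ± 0.06, adjusted p = 1.84e-04) and was the reverse in normoxia (0.46 ± 0.06, with a change of -0.73 ± 0.08, adjusted p = 1.06e-06). BNIP3, a mitophagy receptor, had 395, 369.5, 384 and 355 against 334, 359, 338 and 337 CPM, with overlapping groups, and was called lower by a narrow margin (log2 fold change -0.13 ± 0.06, adjusted p = 0.0444) that was lost under several settings. LOXL2 and STC1 (0.77) rose, and CA12, a carbonic anhydrase (-1.71 ± 0.08), DDIT4 (-0.82 ± 0.09, with 41.2% of exon bases under an antisense gene at 0 counts) and MIF (-0.81) fell. CA9, with 66 counts over MIR210-KO and 9 over MIR210HG-KO, was not tested. In the test of oxygen levels 8 glucose genes were higher and 0 lower, and 9 and 2 of the secreted and other targets.

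Outside these lists the protein-coding genes with the largest change of the knockout difference between oxygen levels were CPNE7, a copine, CYBA, a subunit of NADPH oxidase, and AMPD3, an AMP deaminase, on the positive side, beside NUPR1, CHAC1 and ADM2. CPNE7 had 7.12, 6.74, 7.21 and 6.17 CPM in MIR210-KO and 0.221, 0.0350, 0.215 and 0.107 CPM in MIR210HG-KO in hypoxia, and in normoxia it had 1177 counts over MIR210-KO and 1 over MIR210HG-KO, so its change (4.26 ± 0.85, adjusted p = 0.00293) rests on few counts. AMPD3 was higher in hypoxia (1.07 ± 0.13) and lower in normoxia (-1.01 ± 0.23, 2.08 ± 0.27, adjusted p = 5.23e-06). CYBA was far lower at both levels (-5.05 ± 0.16 and -6.53 ± 0.17, 1.48 ± 0.31, adjusted p = 0.00511). On the negative side stood PSMD5, where the rise was 3.45 ± 0.12 in hypoxia and 5.05 ± 0.15 in normoxia (-1.60 ± 0.22, adjusted p = 1.96e-05), the zinc finger genes ZNF331 (-1.06 ± 0.12) and ZNF467 (-1.14 ± 0.17), DPYSL4 (-0.95 ± 0.11), NMNAT2, an NAD-making enzyme of axons (-1.05 ± 0.24), and PLA2G16, a phospholipase (-1.20 ± 0.28).

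The remaining lists held smaller or mixed differences, to be set beside 26.0% higher and 29.0% lower over all genes tested. Proteasome genes rose in 17 of 39 and fell in 4 (median 0.11), with PSMG1 (0.90 ± 0.08) and PSMA7 (0.85 ± 0.09) beside PSMD5. Heat shock genes fell in 8 of 20 and rose in 3, with HSPB1 (-0.96 ± 0.10) and HSP90AB1 (-0.58 ± 0.05) lower and the small chaperone HSPB8 higher (1.61 ± 0.20). Imprinted genes rose in 8 of 16 and fell in 2, among them MKRN3 (4.14 ± 0.28), IGF2 (2.08) and MAGEL2 (-2.55 ± 0.70, lower). NRF2 targets were split evenly (8 and 8 of 22), with SLC7A11 up and the quinone reductase NQO1 down (-1.78 ± 0.10). Oxygen-sensing genes (5 higher and 2 lower of 10), ER stress sensors (2 and 3 of 9), chemokine and RUNX genes (5 and 3 of 12) and replication-dependent histones (2 and 5 of 20) were likewise mixed.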

How the data were processed

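RNA of the 24 libraries was sequenced by the submitters, who deposited whole-number read counts for 58735 genes in 2 tables, 1 for each oxygen level. The deposited values are whole numbers with different totals for each library, so they were taken as raw counts. The submitters' processing notes name STAR 2.6.1d, featureCounts 1.5.0-p3, the genome build GRCh38, DESeq2 1.20.0 and edgeR 3.24.3. Strand setting and annotation release are not given in the sources used here. No sample column was left unused (0).

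Genes were filtered with filterByExpr, scaled with TMM factors and fitted over all 24 libraries with edgeR 4.0.16 (quasi-likelihood F test, two-sided, Benjamini-Hochberg adjusted p under 0.05 called) in R 4.3.3, with limma 3.58.1 and Python 3.11.15. The comparison of oxygen levels is the interaction term of that fit. Values after ± are SDs (n = 4) for CPM and approximate standard errors for log2 fold changes. The latter were derived from the fold change and its F statistic and were not estimated directly. They understate the error where a group has few counts, as for MAGEA12, CSAG1 and RUNX3 in MIR210-KO. For CYBA the values at the separate oxygen levels do not combine to that of their difference. Each library held 25992740 counts or more, and intervals and floors cover counting error only. The fit was tried on simulated counts of 19952 genes, with 50 changed at each of 1.25-, 1.5-, 2- and 4-fold. The knockouts were otherwise set equal. Of 1.25-fold changes 58% were found in hypoxia and 28% between oxygen levels, and of 1.5-fold changes 82% and 62%. The data hold far more differences than this setting, so scaling and error rates under such wide differences were not tested.

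The members and the 38 gene lists were chosen with earlier results of these data known. Genes were named as the MIR210 locus, a panel of 14 stress and hypoxia genes, the 12 highest and 12 lowest protein-coding genes (5 CPM or more in the higher group, groups not overlapping), the 6 highest and lowest at 100 CPM or more, 4 long non-coding RNAs each way, 3 members of each list and 6 genes each way between oxygen levels. Other list members were added as examples after their values were seen. Some genes these rules name are not reported here. Genes sharing 25% or more of their exon bases with another gene are uncertain. Target sites were read from GENCODE release 29 transcripts, and promoters and microRNAs from RefSeq (GRCh38.p14). Alternatives were DESeq2 1.42.0, other scaling factors and filters, a replicate block, a covariate (mean log2 CPM of protein-coding genes of at least 8000 bases less that of genes of at most 1500 bases), a minimum fold of 2, fewer groups in the fit and leaving out libraries. Setting each gene against the median of its chromosome was added after seeing the data.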

Additional observations from a re-analysis of the deposited data

Results flagged for a closer look

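In 4 of 131 groups of 4 libraries checked, over 62 genes and several library measures, 1 library lay far from the other 3, where chance gives about 1 in 20. DOK6 had 0.0553 CPM in MIR210HG-KO 1 and 0 in the others. CDH1 had 16.5 CPM in MIR210-KO 4, against at most 14.3 in the others. MARVELD2 had 0.483 CPM in MIR210HG-KO 3, against 0.276 to 0.285. BNIP3 had 359 CPM in MIR210HG-KO 2, against 334 to 338.

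The difference between the knockouts itself differed between oxygen levels, by the interaction term of edgeR's quasi-likelihood fit, in 405 genes that were higher in hypoxia and 302 that were lower. Among the genes described, the change on the log2 scale was positive for members of the stress response, with 1.05 for ATF3, 0.82 for TRIB3, 0.37 for ATF4, 1.56 for CHAC1, 2.02 for NUPR1, 1.05 for STC2 and 1.33 for SLC7A11. ER genes had 0.73 for HSPA5, 0.73 for HERPUD1 and 0.35 for HYOU1. HMGCS1 of cholesterol synthesis had 0.39. Hypoxia genes had 0.32 for VEGFA, 0.36 for BNIP3, 0.55 for PFKFB4 and 0.40 for ENO2 but -0.73 for NDRG1 and -0.40 for EPAS1. Other positive changes were 1.56 for ADM2, 0.61 for COL3A1, 0.42 for SNAI2, 0.36 for KIF1A, 4.26 for CPNE7, 2.08 for AMPD3 and 1.48 for CYBA. Negative ones were -1.60 for PSMD5, -1.06 for ZNF331, -0.95 for DPYSL4 and -0.85 for CXorf40A.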

How the results depend on the processing

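With other scaling, filters or groups in the fit, or 1 hypoxia library of these groups left out, 4676 to 5723 genes were higher and 5154 to 6240 lower in hypoxia, and the share of higher genes among calls ran from 42.8% to 51.1%. Called against a minimum fold of 2 (glmTreat), 190 were higher and 1082 lower. The replicate numbers did not pair the libraries (r of -0.045 to 0.008 between same-numbered ones), and with a replicate block 5221 genes were higher and 5759 lower, and 390 and 276 in the comparison of oxygen levels. That comparison gave 405 and 302 genes and moved more. DESeq2 gave 630 higher genes, the covariate for long and short genes 845 higher and 658 lower, leaving out the 4 libraries that stood apart 1137 and 1007, and a minimum fold of 2 gave 1 and 0. Leaving out 1 library gave 286 to 654 higher and 166 to 452 lower genes, the most without normoxia MIR210HG-KO 3. The cause was not tested. ASNS, not called, turned to -0.016 with the covariate. Of 3999 gene values in hypoxia under alternatives 139 were no longer past the threshold, 26 came past it and 1 reversed. Of 1275 in the comparison of oxygen levels 121 were lost. BNIP3 was lost under most settings (adjusted p of 0.0513 to 0.234 without 1 hypoxia library). The fibroblast list median (-0.38) was -0.05 without MIR210-KO 1. Depth limits genes with few counts, whose levels carry the largest counting error relative to their size.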
